A study of Mus musculus with 2 samples.

Results

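The genes described here encode structural proteins of the sarcomere, the contractile unit of heart muscle: 6 proteins of the Z-disc (Actn2, Ldb3, Nebl, Flnc, Tcap and Csrp3), 2 of the M-band (Myom1 and Myom2) and Mybpc3. They were taken by name from the overlapped gene in a list of places where RNA pulled down with NAT10 exceeded Input RNA in the mouse heart, and each place was counted once. Of the 9 genes, 7 had at least 1 such place, and together they held 49 of 2020, or 2.43%. Nebl and Csrp3 had none. Mybpc3 was grouped with these genes by name, but its protein is known to lie in the A-band on either side of the M-band, so it is given as a class of its own.

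The RIP sample was RNA precipitated with anti-FLAG beads from heart lysate, and the Input sample was 10% of that same lysate, set aside before the precipitation. Both came from hearts of WT mice that had been given AAV9-cTnT-FLAG-NAT10 under the skin at day 1 after birth and were killed 20 days after the injection. NAT10 is an enzyme that acetylates cytidines in RNA, and the cTnT promoter limits its FLAG-tagged form mainly to heart muscle cells. The series asked which mRNAs associate with NAT10. There was 1 library of each kind and no pulldown from hearts without FLAG-NAT10, so no value below has a replicate check or a p-value, and RNA that stuck to the beads or antibody cannot be told apart from partners of NAT10. How many hearts went into a library was not given in the sources used here.

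The Z-disc is the plate at the border of neighbouring sarcomeres, in which the thin filaments of opposite direction are anchored and cross-linked by alpha-actinin. The M-band lies at the centre of the sarcomere, where myomesins cross-link the thick filaments of myosin. Titin runs from the first structure to the second, and mutations in many of these genes are known causes of cardiomyopathy in humans.

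A summit is a single base at which the signal of RIP over Input had a local high within a peak. A peak can hold more than 1 summit, and the 49 summits here came from 48 peaks. The score of a summit is the authors' own value. The header of that column had become a spreadsheet error, and from its values and the peak caller named it was taken here to be a -log10 p or q, which of these not being given. On that reading a higher score means a difference between RIP and Input that is less likely under the caller's model. It can rise with the abundance of the RNA, with its enrichment and with sequencing depth, and none of these could be separated, because the table held no counts, folds or Input levels. The depth of the libraries is therefore unknown. Over all 2020 summits the median score was 12.5, with quartiles of 5.83 and 28.3. Positions are 1-based bases of GRCm38, the build in which all 49 summits lay inside the RefSeq bounds of their gene.

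As a check of the tissue, 3 of 10 cardiomyocyte markers had a summit (30%), with highest scores of 1524 (Myh6), 160 (Ryr2) and 6.09 (Tnni3). So did 3 of 26 markers of other cells. These were 2 of 6 fibroblast markers (33.3%), Col1a1 (24.9) and Pdgfra (4.10), and 1 of 6 endothelial markers, Cldn5 (23.4). Markers of smooth muscle and macrophages had none. Over all annotated protein-coding genes the share was 4.22%. By share, the cardiomyocyte markers were thus not above the fibroblast markers. The 6 markers of skeletal muscle, a tissue that shares most of the genes described here, had none. A summit is not a measure of expression, and a gene without one may be well expressed.

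A summit was found in 4 of 6 Z-disc genes and in both M-band genes. Of the 21770 annotated protein-coding genes 919 had a summit, which is 4.22%. That background includes genes that the heart does not express. The strongest summit of each of the 7 genes scored at or above the upper quartile of the list. That level was reached by 226 of the 919 genes with a summit (24.6%), and by 1.04% of all annotated genes. The strongest scores of the 7 genes ran between 63.9 for Ldb3 and 233 for Myom2, with a median of 131. Over the 919 genes the median of the strongest score was 14.2. A gene with more summits has more chances of a high one. Of the 7 genes 6 had at least 3 summits, against a median of 1 over the 919, and no comparison at equal numbers was made. The strongest scores in the 4 Z-disc genes were 63.9, 70.3, 109 and 152, and in the M-band genes they were 131 and 233. These ranges overlap, since Flnc of the Z-disc lay above Myom1 of the M-band.

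The Z-disc genes and the M-band genes had 21 summits each, spread over 6 and 2 genes. The numbers were 9 in Actn2, 8 in Flnc, 3 in Ldb3, 1 in Tcap and 0 in Nebl and Csrp3, against 9 in Myom1 and 12 in Myom2. Mybpc3 had 7. Among the 919 genes the median was 1 summit per gene, and 27 genes (2.94%) had 7 or more, 5 of them described here. Myom2 ranked 15th in this number.

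Longer transcripts offer more room for summits. Per kb of the Ensembl canonical transcript there were 0.652 summits over the 6 Z-disc genes and 1.88 over the 2 M-band genes. The median over the 919 genes was 0.301, a measure of another kind. It is taken over single genes that have a summit. The class values instead divide all summits by all kb, with Nebl and Csrp3 included. The Z-disc total of 32.2 kb includes 13.8 kb of 3' UTR, of which Nebl alone supplies 6.04 kb. Counting only summits in coding exons, per kb of coding sequence, the values were 0.716 in the Z-disc genes and 1.92 in the M-band genes. The classes were not separate gene by gene. Summits that the table placed in a last exon were counted as coding, which concerns 1 summit here, in Actn2. Actn2 had 2.61 coding exon summits per kb of coding sequence, or 2.24 without that summit, against 2.28 in Myom2 and 1.60 in Myom1, while Ldb3 had 0.975 and Flnc 0.371. No test was made, because genes are not replicates.

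**Figure D1:**
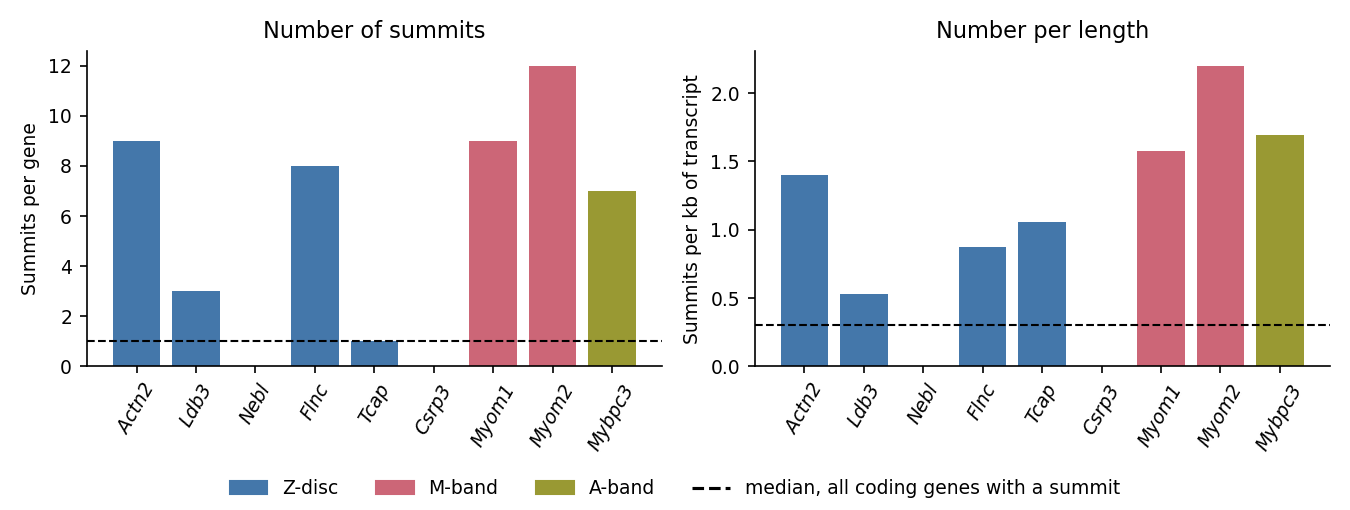
Number of summits in each gene (left) and number per kb of the canonical transcript (right), with bars coloured by class and dashed lines at the median of the 919 protein-coding genes with a summit. Myom2 has the most by either measure (12, or 2.20 per kb), Actn2 and Myom1 share 9, and Nebl and Csrp3 have 0.

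Actn2 (ENSMUSG00000052374; chromosome 13, 12269426 to 12340732, minus strand) encodes alpha-actinin 2, which cross-links actin filaments in the Z-disc. Its strongest summit, 70.3, lay at 12340562 in the 5' UTR, 170 bases inside the 5' end of the gene. No other gene described here had its strongest summit in the 5' UTR. The next were 22.2 at 12269547 in the last exon, 121 bases before the RefSeq 3' end, and 20.2 at 12291784 in exon 10. The other 6 scored 10.6 (exon 11), 6.84 (exon 13), 6.60 (exon 2), 6.30 (intron 8), 3.53 (exon 8) and 1.95 (exon 20), all below the median of the list. Actn2 thus had a strong summit at the start of the transcript, while 6 of its 9 summits lay below the median of the list. Its median score was 6.84. The canonical transcript of Actn2 has a 3' UTR of 3.08 kb, while the table did not call this last exon a 3' UTR, so the transcript models may end at different places, and where the coding sequence ends relative to this summit was not settled here.

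Flnc (ENSMUSG00000068699; chromosome 6, 29433153 to 29461889, plus strand) encodes filamin C, an actin cross-linker that ties the Z-disc to the cell membrane. It has the longest coding sequence of the 9 genes, 8.08 kb. Its strongest summit scored 152 at 29461691 in the 3' UTR, 198 bases before the end of the gene. The second was 23.3 at 29443624 in intron 10. A summit in the 5' UTR at 29433437 scored 13.4, and those in exons 25, 23 and 21 scored 14.2, 8.23 and 4.33. A further one scored 7.87 in intron 15, and one of 7.38 at 29444199, whose centre the table called intergenic, had its start in exon 12 and its end in intron 12, so it was counted as lying on their border. Flnc and Actn2 thus both had a summit at each end of the gene, but the stronger of these was the one at the 3' end in Flnc and the one at the 5' end in Actn2.

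Ldb3 (ENSMUSG00000021798; chromosome 14, 34526699 to 34590314, minus strand) encodes LDB3, also called ZASP or cypher, a PDZ and LIM domain protein that binds alpha-actinin. It had 3 summits. The strongest, 63.9, lay at 34544247 in exon 10, the others scored 26.3 at 34526981 in the 3' UTR, 282 bases before the end, and 3.45 at 34552274 in exon 9. The first of them along the gene lay at 59.8% of its length, so the 5' part held none. Ldb3 was the only gene here with its strongest summit in an internal coding exon.

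Tcap (ENSMUSG00000007877; chromosome 11, 98383811 to 98384953, plus strand) encodes telethonin, the cap that joins the ends of titin molecules at the Z-disc. Its transcript is the shortest of the 9, 0.948 kb in 2 exons, and it had a single summit, in the 3' UTR at 98384736, 217 bases before the end. Its score of 109 placed the gene 45th of 919 by strongest score.

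Csrp3 (chromosome 7, 48830398 to 48848051, minus strand) encodes muscle LIM protein, and Nebl (chromosome 2, 17342673 to 17734949, minus strand) encodes nebulette, which runs along the base of the thin filament at the Z-disc. Neither had a summit, and no summit given to another gene or to no gene lay inside their RefSeq bounds. The canonical transcript of Csrp3, 1.00 kb, is about as short as that of Tcap, whereas that of Nebl, 8.99 kb, is nearly as long as that of Flnc, 9.15 kb. The 2 genes without a summit were thus among the shortest and the longest. The list holds only summits past the threshold of the authors, so association below it could not be seen.

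Myom2 (ENSMUSG00000031461; chromosome 8, 15057653 to 15133420, plus strand) encodes myomesin 2, also called M-protein. Its strongest summit scored 233 at 15133083 in the 3' UTR, 337 bases before the RefSeq end, and was the 25th of all 2020 summits. By strongest score the gene ranked 16th of 919. The second summit, 59.2 at 15111886, was placed in intron 22, and the third, 46.1 at 15069650, in exon 5. Exon 26 had 27.6, and exons 12, 10 and 9 had 16.3, 16.1 and 15.9. The summits in exons 9 and 10 came from the same peak and lay 306 bases apart, the closest pair in any of the genes. The other 5, in exons 20, 14, 18, 3 and 32, scored between 2.13 and 9.96.

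Myom1 (ENSMUSG00000024049; chromosome 17, 71003332 to 71126856, plus strand) encodes myomesin 1, the principal cross-linker of the M-band. Its strongest summit scored 131 at 71126681 in the 3' UTR, 175 bases before the end. The other 8 were all in coding exons and ran between 1.98 in exon 5 and 22.3 in exon 4. Exon 12 had 13.7, and exons 23, 7, 11, 21 and 19 had 10.5, 9.42, 7.66, 5.78 and 4.09. All 9 summits also overlapped introns of a second gene without a symbol in the table (ENSMUSG00000097625), and the list gives no strand of the reads. No annotation was at hand for that gene. Without summits shared by 2 genes, Myom1 had none and the M-band count was the 12 of Myom2.

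Mybpc3 (ENSMUSG00000002100; chromosome 2, 91118114 to 91136516, plus strand) encodes cardiac myosin-binding protein C, which regulates the access of myosin heads to the thin filament. Its strongest summit scored 169 at 91136356 in the 3' UTR, 160 bases before the end. The other 6 scored 76.1 in intron 4, 62.2 in exon 25, 58.4 in exon 2, 58.0 in intron 15, 15.7 in exon 12 and 3.94 in exon 33. Of its 7 summits 5 were at or above the upper quartile of the list, as against 4 of 21 in the Z-disc genes and 4 of 21 in the M-band genes. The median score of Mybpc3 was 58.4, whereas the medians of the Z-disc and M-band summits were 10.6 and 10.5. Strong summits of Mybpc3 lay in the body of the gene as well as at its 3' end.

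**Figure D2:**
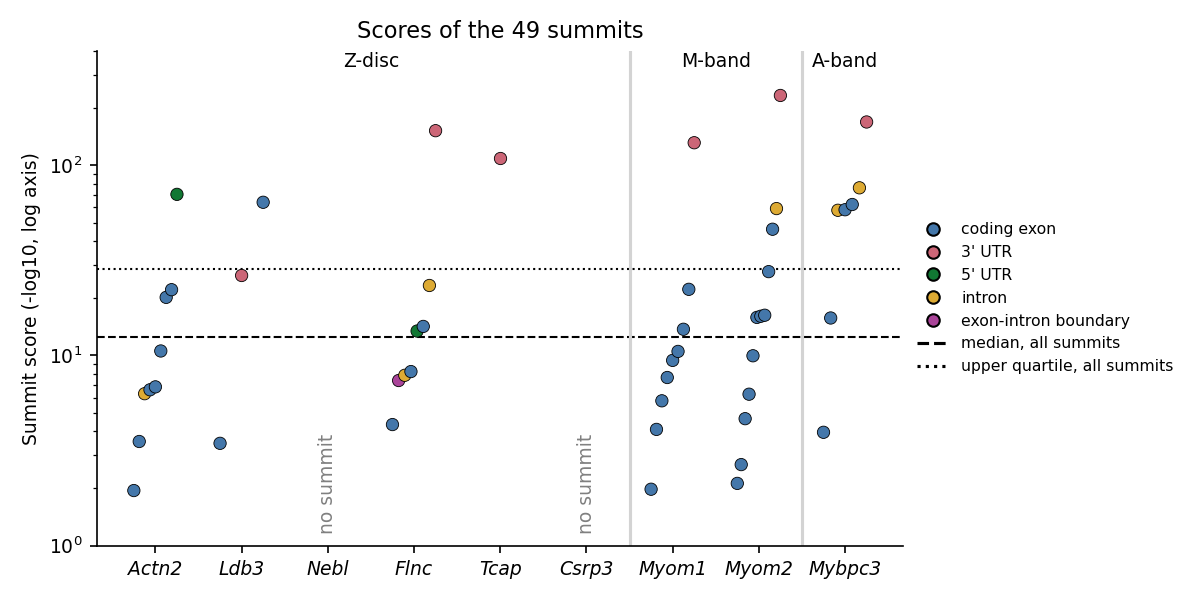
Scores of the 49 summits on a log axis, by gene and coloured by region, with dashed and dotted lines at the median (12.5) and upper quartile (28.3) of all 2020 summits. The top summit is in the 3' UTR in Flnc, Tcap, Myom1, Myom2 and Mybpc3, in the 5' UTR in Actn2 and in a coding exon in Ldb3.

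Summits near the 3' end of the gene recurred across the classes. All 7 genes had a summit within 500 bases of their RefSeq 3' end, between 121 bases (Actn2) and 337 bases (Myom2) before it. In 5 of the 7 this was the strongest summit of the gene. Actn2 and Ldb3 were the exceptions. In Tcap, whose transcript is 0.948 kb, the window takes in much of the gene, and its single summit is the strongest by definition. Other transcripts of these genes may end elsewhere. For Actn2 the count rests on the RefSeq end, because its canonical transcript, with a 3' UTR of 3.08 kb, may end further on. The distance to the 3' end was chosen as a measure after the positions were seen. Of 863 other protein-coding genes with a summit inside their RefSeq bounds, 421 (48.8%) had a summit within 500 bases of the end, and in 385 (44.6%) it was the strongest. Within 250 bases, 5 of the 7 genes here had one and it was the strongest in 4, against 32.6% and 29.9% of the 863. Genes with several summits have more chances of one there. Among the genes with at least 3 summits, all 6 described here had one, against 54 of 99 others (54.5%), and it was the strongest in 4 of 6, against 37 of 99 (37.4%). A summit at the 3' end was thus common in the whole list. mRNA had been purified with a kit in both fractions, and read coverage along the transcripts was not analysed here.

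**Figure D3:**
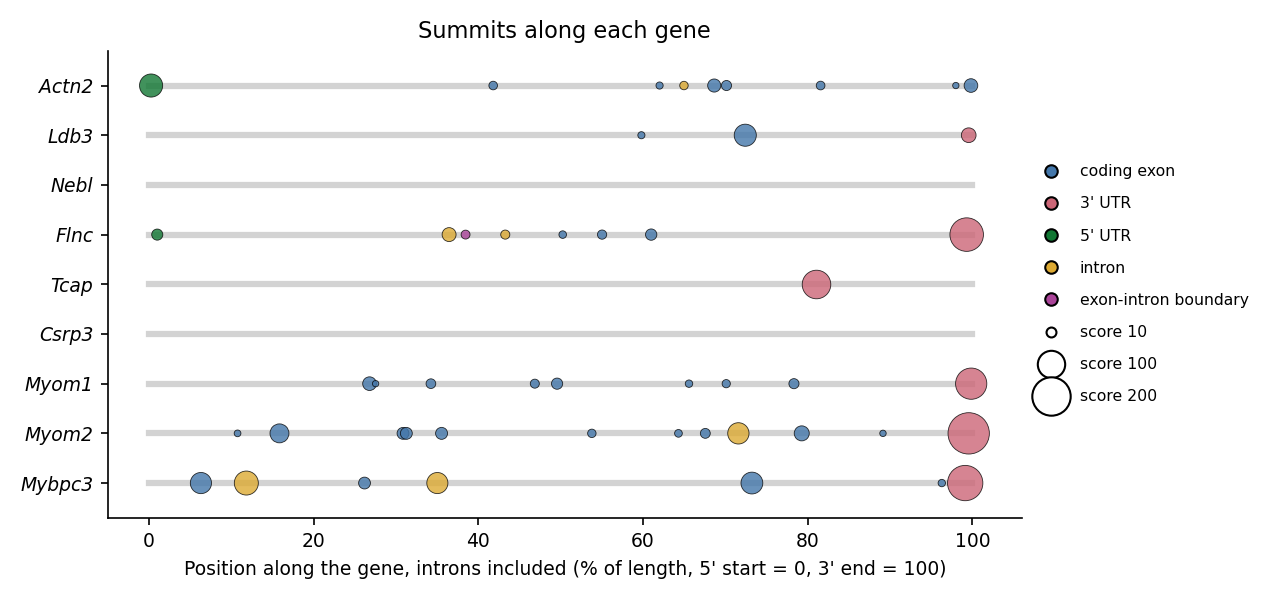
Position of each summit along its gene, introns included, as a percentage of the RefSeq GRCm38 length with the 5' start at 0 and the 3' end at 100. Circle area grows with the score and colour gives the region. Large 3' UTR circles stand at the right end of Flnc, Myom1, Myom2 and Mybpc3, and Actn2 has its largest circle at the left end.

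Seen by region, 12 of the 21 Z-disc summits lay in coding exons (57.1%, exact 95% interval 34.0 to 78.2), against 18 of the 21 M-band summits (85.7%, 63.7 to 97.0). The 3' UTR held 3 Z-disc summits (14.3%, 3.05 to 36.3) and 2 M-band summits (9.52%, 1.17 to 30.4). With the last exon summit of Actn2 counted as 3' UTR instead, the Z-disc had 11 in coding exons (52.4%) and 4 in 3' UTRs (19.0%). Both summits in a 5' UTR were of Z-disc genes, Actn2 and Flnc, against 0 of 21 in the M-band genes, which allows a share of up to 16.1% by the exact interval. Introns held 3 Z-disc summits and 1 M-band summit. Over all 49 summits, 4.08% lay in a 5' UTR and 12.2% in an intron, against 1.62% and 5.58% of the 1971 other summits. In other genes with at least 3 summits these shares were 0.98% and 6.54%. The intervals of the classes overlap for each region, and they cover counting error only. Summits of a gene share its RNA and are not independent, so the intervals may be too narrow.

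The 3 Z-disc summits in introns scored 6.30, 7.87 and 23.3, the M-band summit in an intron scored 59.2, and those of Mybpc3 scored 58.0 and 76.1. For comparison, 110 intron summits outside these genes had a median of 7.39 and an upper quartile of 19.5. Of the 6 intron summits here, 4 lay above that quartile. The table appears to use 1 transcript model per gene, and exons of other transcripts at these places were not checked, since a genome annotation of exons in GRCm38 was not used here.

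Over all 49 summits of these genes the share in coding exons was 69.4% (54.6 to 81.7), against 50.7% (48.5 to 52.9) of the 1971 other summits. The share in 3' UTRs was 12.2% (4.63 to 24.8), against 36.8% (34.7 to 39.0). Many of the other summits were the only one of their gene. Against the 918 summits of 105 other genes with at least 3 summits, of which 79.2% lay in coding exons and 13.0% in 3' UTRs, the intervals overlapped (76.4 to 81.8 and 10.9 to 15.3). Without Ttn, the shares in those other genes were 73.1% and 17.1%. The low share of 3' UTR summits was thus near that of other genes with several summits. The 3' UTR makes up 33.8% of the canonical transcript in the Z-disc genes and 9.79% in the M-band genes, weighted by summit, beside the 14.3% and 9.52% of summits found there. The Z-disc value includes the 3.08 kb of Actn2, which has 9 summits. The transcript model that gave the regions may lack that 3' UTR, so 33.8% and 14.3% may rest on different models.

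The few 3' UTR summits were nevertheless strong. The 6 scored between 26.3 and 233 with a median of 142, and 5 of 6 were at or above the upper quartile of the list. With the last exon summit of Actn2 as a seventh, 22.2, the median was 131 and 5 of 7 reached that level. The 725 other 3' UTR summits had a median of 13.1 and 22.9% of them reached that level. Of these 725, 119 lay in genes with at least 3 summits, and their scores were not compared on their own. In coding exons the order was the other way. The 34 coding exon summits of these genes had a median of 9.69, against 12.5 for the 999 others. By class the coding exon medians were 7.53 for the Z-disc, 9.69 for the M-band and 37.1 for the 4 of Mybpc3.

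**Figure D4:**
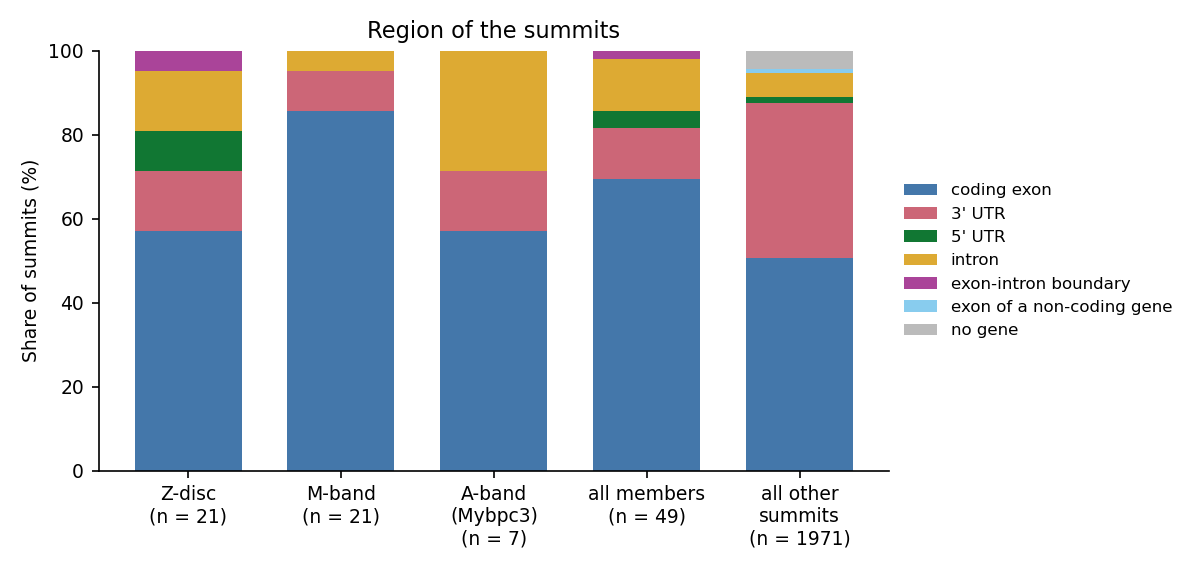
Share of summits in each region, as percent, for the Z-disc genes, the M-band genes, Mybpc3, all 9 genes and the 1971 other summits. Coding exons take 57.1% of Z-disc and 85.7% of M-band summits, and 3' UTRs take 12.2% over all 9 genes, against 36.8% of the other summits.

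Other genes of the same structures were taken from lists of their known components. Of 30 further Z-disc genes 8 had a summit (26.7%), against 4.22% of all annotated protein-coding genes. That background includes genes that the heart does not express, and no share among expressed genes was available. The 8 genes had 17 summits in all. The strongest were Bag3, a cochaperone of filamin turnover, at 84.9, Fhl1, a LIM domain protein, at 77.5, and desmin (Des), the intermediate filament around the Z-disc, at 60.8, each in the 3' UTR. The formin Fhod3 followed with 31.2 in exon 18 and 6 summits, all in coding exons, then Synpo2 with 28.2 and Flna, the filamin found in most cells, with 20.5, both in the 3' UTR. Myot, Myoz1, Myoz2, Mypn, Neb and Pdlim1 were among those without a summit.

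Of the 13 annotated further M-band genes reported here 2 had a summit (15.4%), beside the same background of 4.22%. Obsl1, a cytoskeletal adaptor, had a single summit of 3.67 in exon 1, and Speg, a kinase of striated muscle, a single summit of 1.86 in the 3' UTR. Myom3, the third myomesin, Ckm, the muscle creatine kinase bound at the M-band, and the ring finger genes Trim54, Trim55 and Trim63 had none, nor had Smyd1. The relatives of Mybpc3, Mybpc1, Mybpc2, Mybph and Mybphl, also had none, and these are known chiefly from skeletal muscle or atria. Titin (Ttn), which spans both structures, had 235 summits with a highest score of 297. Its 3' UTR held 2 of them.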

How the data were processed

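Trimming used fastp and alignment BWA 0.7.12, per the labels' protocols; MACS2 2.1.0, HOMER and the build GRCm39 are named, with no role, in the submitters' processing notes. The authors deposited 1 table of 2269 lines for 2020 summits in 1600 peaks, with 1 line per overlapped gene. The score column deposited by the authors had lost its header to a spreadsheet error and was taken to be a -log10 p-value or q-value from its range and the tools named. The lowest score, 1.32, lies just above 1.30, the -log10 of a p-value of 0.05.

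Of 2140 gene lines with an identifier in GENCODE release 39, 28.1% lay inside their gene on GRCm39, and of 1914 matched by symbol to RefSeq GRCm38, 98.9% did, so GRCm38 was taken. GENCODE gave lengths, strand and gene type only. Sequence at the summits was not analysed here. A RefSeq promoter window was matched for 7 of the 9 genes, and no summit of these genes lay in one.

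Summits were counted once per name and gene and read by the region at their centre, a last exon as coding. The scripts (Python 3.11.15) were tested on simulated data. Genes, lists and alternatives were chosen with earlier results of these data known. All 9 genes are named, and of each further list up to 6 with and 6 without a summit. Of the further M-band list, 1 gene is not reported here.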

Additional observations from a re-analysis of the deposited data

How the results depend on the processing

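Of the values recomputed under alternatives, 71 stayed within 1.5 times of the reported value, or for shares within its exact interval, and 19 did not. At the median score 10 Z-disc and 10 M-band summits remained, and at the upper quartile 4 and 4, with 3' UTR shares of 38.5% over all genes and 50% in each class. The 7 genes with a summit kept one at either threshold. With summits in exactly 1 gene only, the M-band had 12 summits. Without Myom2, the gene with most, it had 9. Under the closest transcription start the counts were 9 for the Z-disc and 10 for the M-band, the 3' UTR share in the M-band was 0%, because the 3' UTR summits of both genes went to neighbours, and the median strongest score was 58.2 over all genes, 70.3 in the Z-disc and 34.2 in the M-band, so that the order of the classes turned round. With the median over a gene's summits in place of the strongest, the medians were 16.0 over all genes, 18.6 in the Z-disc and 12.7 in the M-band, so that the order turned round here too. Per kb of all annotated exons there were 0.38 summits in the Z-disc and 0.632 in the M-band, a smaller gap than per kb of the canonical transcript. Counting the last exon as 3' UTR moved no share past its interval. It, the exon and coding lengths and the windows at the 3' end were chosen after seeing the data. Merging summits less than 200 bases apart could change nothing, because the closest pair lay 306 bases apart. Its 9 values are nevertheless counted in the 71. Keeping only exon and UTR summits and adding Mybpc3 to the M-band moved no value past these limits, and the latter could alter M-band values only. No paired analysis was possible because there was 1 library of each kind. Depth was unknown, so no gene without a summit can be called free of association.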
